A study of Mus musculus with 8 samples.

Results

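The semaphorins and their receptors were examined as a set of 31 genes, listed by name: 20 semaphorins, 9 plexins and 2 neuropilins, out of 21883 protein-coding genes in the annotation table. Open chromatin had been profiled by ATAC-seq, an assay in which a transposase marks DNA that is not packed away by nucleosomes, and each library was deposited as a list of peaks, the stretches where the signal rose above its surroundings. For each gene the peaks over its body (mm10) and the 10 kb on either side were taken, peaks that overlapped within a list were joined into regions, and the 50000 regions of a library with the highest deposited −log10 p were called selected. A count of selected regions is therefore a count of strong accessible sites within a list of fixed length, not a measure of expression.

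All mice were on the C57Bl/6J background. The Fn14 knockout (KO) group and its wild-type (WT) littermates, untreated and taken at postnatal day 27, gave coronal sections of frozen brain. The sections took in cortex, hippocampus and dLGN (dorsal lateral geniculate nucleus), which passes retinal signals to the visual cortex. The chow groups received PLX5562 chow, meant to deplete microglia, or control chow made alongside it, from postnatal day 20 to day 32, and gave microdissected dLGN. Each of the 4 groups had 2 libraries. The labels do not say how the Fn14 allele was made, nor whether the libraries of a group came from different animals, so every p-value below measures only the spread between these libraries.

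Semaphorins are guidance proteins that steer growing axons and dendrites and later tune synapses and spines. Plexins are their transmembrane receptors and act on small GTPases that control the cytoskeleton. Secreted class 3 semaphorins mostly bind neuropilins, which signal through A plexins, whereas the membrane-bound class 4 proteins act largely through B plexins and class 6 proteins bind A plexins directly. Sema7a, held to the membrane by a lipid anchor, is a ligand of Plxnc1, and Sema3e can bind Plxnd1 without a neuropilin.

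The starts of these genes range from poor to rich in CpG dinucleotides. The windows printed here run from 250 bases before to 50 bases after the start (RefSeq, GRCm38.p6, which is the mm10 build), read 5′ to 3′ on the gene's strand, with every CpG dinucleotide in capitals. They were chosen after the values were seen: Sema3a had no peak at its listed start, which lies inside the annotated gene interval, in any library, Sema4f was among the strongest starts in both tissues, and the other 3 differed in rank between the tissues. For Sema4b the first of 2 listed starts is shown.
Sema3a, chr5:13396534-13396833, plus strand: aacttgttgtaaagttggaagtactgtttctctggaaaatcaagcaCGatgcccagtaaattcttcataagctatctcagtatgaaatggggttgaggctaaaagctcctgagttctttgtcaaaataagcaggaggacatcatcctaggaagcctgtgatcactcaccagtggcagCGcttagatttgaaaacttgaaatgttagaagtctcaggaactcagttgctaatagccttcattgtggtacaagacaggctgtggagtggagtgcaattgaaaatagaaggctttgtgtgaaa
Sema3d, chr5:12382916-12383215, plus strand: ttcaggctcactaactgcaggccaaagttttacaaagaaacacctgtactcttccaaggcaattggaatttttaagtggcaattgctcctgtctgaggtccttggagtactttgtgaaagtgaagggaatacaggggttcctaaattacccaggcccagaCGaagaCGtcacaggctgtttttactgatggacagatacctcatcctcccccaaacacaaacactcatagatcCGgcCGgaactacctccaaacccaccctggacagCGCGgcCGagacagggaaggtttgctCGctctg
Sema4b, chr7:80186620-80186919, plus strand: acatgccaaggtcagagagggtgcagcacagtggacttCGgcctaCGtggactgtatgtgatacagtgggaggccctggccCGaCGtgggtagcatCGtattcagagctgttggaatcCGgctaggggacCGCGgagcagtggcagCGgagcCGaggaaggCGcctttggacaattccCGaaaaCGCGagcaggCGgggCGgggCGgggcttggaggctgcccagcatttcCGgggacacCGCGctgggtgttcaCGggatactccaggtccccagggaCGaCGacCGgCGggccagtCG
Sema4f, chr6:82939720-82940019, minus strand: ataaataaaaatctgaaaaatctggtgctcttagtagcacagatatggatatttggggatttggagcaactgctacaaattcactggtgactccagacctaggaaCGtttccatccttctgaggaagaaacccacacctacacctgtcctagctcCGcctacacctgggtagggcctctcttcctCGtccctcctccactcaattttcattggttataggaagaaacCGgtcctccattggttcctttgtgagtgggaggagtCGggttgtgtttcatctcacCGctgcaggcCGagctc
Plxna2, chr1:194619579-194619878, plus strand: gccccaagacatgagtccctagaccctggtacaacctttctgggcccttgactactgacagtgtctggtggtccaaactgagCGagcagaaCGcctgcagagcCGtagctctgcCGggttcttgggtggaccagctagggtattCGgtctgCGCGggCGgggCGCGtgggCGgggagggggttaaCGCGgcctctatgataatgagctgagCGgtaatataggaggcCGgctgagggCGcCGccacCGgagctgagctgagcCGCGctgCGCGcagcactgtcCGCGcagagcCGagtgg
Sema3a has 2 CpGs in the window, Sema4f 7 and Sema3d 8, against 25 in Plxna2 and 26 in Sema4b.

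The RefSeq table held 37 starts for 26 of the genes, and none for Sema3b, Sema3f, Sema6a, Plxna1 and Plxna4. A deposited peak lay over the start in all 8 libraries at 29 of the 37 (78.4%), against 57.2% of 21262 starts of coding genes. The median window with a peak in all 8 libraries held 23.0 CpGs and the median of the remaining 8 windows held 3.00, which was close to the 22.0 and 3.00 found over all coding starts. At gene level 24 of the 26 had such a start (92.3%, against 59.0% of 17491 coding genes), and the exceptions were Sema3a and Sema4d. Genes with several listed starts can meet this more easily. Sema4d, a membrane-bound ligand of Plxnb1, is listed with 3 starts, which had a peak in 0, 2 and 3 libraries. The few CpGs of a window did not always go with a missing peak: the start of Plxnb3, a B plexin, held 4 CpGs and had a peak in all 8 libraries.

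The promoter windows were also searched on both strands for 4 short motifs. The GC box GGGCGG was found in 27 of the 37 windows (73.0%, against 46.2% of all coding starts), and CCAAT in 7 (18.9% against 38.2%). CACGTG, the E-box, was found in 3 windows (8.11% against 7.84%) and TATAAA in 0, against 12.6% of all coding starts. Of the sequences printed above, Sema4b and Plxna2 hold the GC box, seen as gggCGg, and Sema3a, Sema3d and Sema4f do not.

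Across the series the lists held 248989 to 299822 peaks and merged into 192168 to 218214 regions, and read depth is unknown because the lists carry no read counts. The weakest selected region had a deposited −log10 p of 13.4 to 21.5 in sections and 25.2 to 33.0 in dLGN. Raw −log10 p values are therefore given only as a description, and libraries were compared by ranks and counts. The selected base pairs of 2 libraries overlapped with a Jaccard index of 0.572 to 0.711 within a tissue and 0.375 to 0.483 across tissues, and no lists were identical. At Tnfrsf12a, which encodes Fn14, both KO libraries lacked the peak that all 6 other libraries had over the gene. P2ry12, a microglial receptor gene, had 7 and 6 merged regions in the PLX chow libraries against 12 and 10 in the control chow libraries. Csf1r, the gene of the receptor that microglia need to survive, had 3 and 1 against 4 and 4. These counts include regions that were not selected, and the PLX chow lists held fewer, at 192208 and 200758 against 215535 and 204905. The highest −log10 p was 76.3 and 64.9 against 137 and 78.3 at P2ry12, and 23.7 and 24.4 against 22.1 and 23.7 at Csf1r. By selected regions, 0 of the 15 microglial markers with any did not overlap between the diets. The 2 tissues differ in their cell types, and in bulk tissue fewer cells of a type and less accessible chromatin per cell cannot be told apart.

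Together the 31 genes held 138 and 140 selected regions in the KO libraries, 152 and 164 in WT, 154 and 157 in PLX chow and 148 and 161 in control chow. The KO libraries were the lowest of the 8 and did not overlap WT, whereas the chow groups overlapped. Counted over all deposited peaks at the same genes, the KO libraries were the highest of the 8, with 998 and 1010. WT held 897 and 926 and the chow groups 837 to 967. The KO lists were also the longest, with 299822 and 299816 peaks against 256323 and 261201 in WT and 248989 to 285771 under chow. These counts are not adjusted for list length. Over all merged regions, 23.6% of all genes were higher in both KO libraries than in either WT library. The median gene of the set had 3.12 selected regions per library, against 2.0 over the 17340 coding genes with any, and its density was 4.07 per 100 kb of window, against 3.86. Longer genes held more: over the 31 genes the Spearman correlation of gene length with selected regions was 0.83, against 0.48 over all genes, where genes are not independent replicates and a longer window can hold more peaks.

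By density the order ran from Sema3a, with 1.25 selected regions per 100 kb, to Sema3b, with 8.71. Sema6d had the most deposited peaks, with a mean of 133 per library, followed by Sema5a with 102, Plxna4 with 86.0, Sema6a with 56.4 and Plxna2 with 54.2. The order did not follow length alone: Sema3a, at 479 kb longer than all of these but Sema6d, had 33.1, and Sema6a spans 126 kb. All 31 genes had a selected region in at least 1 library, although Sema6b, a class 6 ligand, averaged only 0.875 and fell below the minimum of 1 for testing. Windows of short genes often reach into neighbours: the strongest region of Sema3b lies 9412 bp from the gene over the start of Ifrd2, and that of Sema4c lies over the start of Ankrd39. In 5 of the 31 genes the strongest region covered another gene's start, and in 23 it overlapped the gene itself.

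The deposited fold and −log10 p are the authors' own values for a peak and set each class apart within a library. Among class 3 ligands the highest −log10 p of a library came from Sema3b in all section libraries and from Sema3d in both control chow libraries and 1 PLX chow library. It ran from 155 to 290 in sections and from 357 to 469 in dLGN, where the highest value, 469, was the peak at the start of Sema3d. In class 4 it was Sema4c in all but 1 library, where it was Sema4f. The highest folds of the class were 13.9 to 16.6 in sections and 19.8 to 21.8 in dLGN. The leading peaks of Sema3b and Sema4c lie outside these genes, over the starts of Ifrd2 and Ankrd39. Their values therefore describe the windows and not the ligand genes alone. Sema5a led class 5 in all 4 dLGN libraries, and Sema6a led class 6 there, while Sema6c led it in 3 of the 4 section libraries.

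Among receptors Plxna2 led the A plexins by −log10 p in every library, at 104 to 154 in sections and 294 to 414 in dLGN. Plxnb1 led the B plexins in every section library and Plxnb3 in every dLGN library, with highest folds of the class of 5.17 to 6.23 and 10.3 to 12.3. Nrp2 led the neuropilins in all libraries except the first PLX chow library, where Nrp1 did. Plxnc1 reached a −log10 p of 63.9 to 165 in sections and 175 to 287 in dLGN, Plxnd1 38.6 to 64.9 and 55.7 to 109, and Sema7a 24.7 to 65.8 and 74.8 to 112. These values also move with the depth and background of each list, so the 2 tissues are compared by ranks and counts below.

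**Figure D1:**
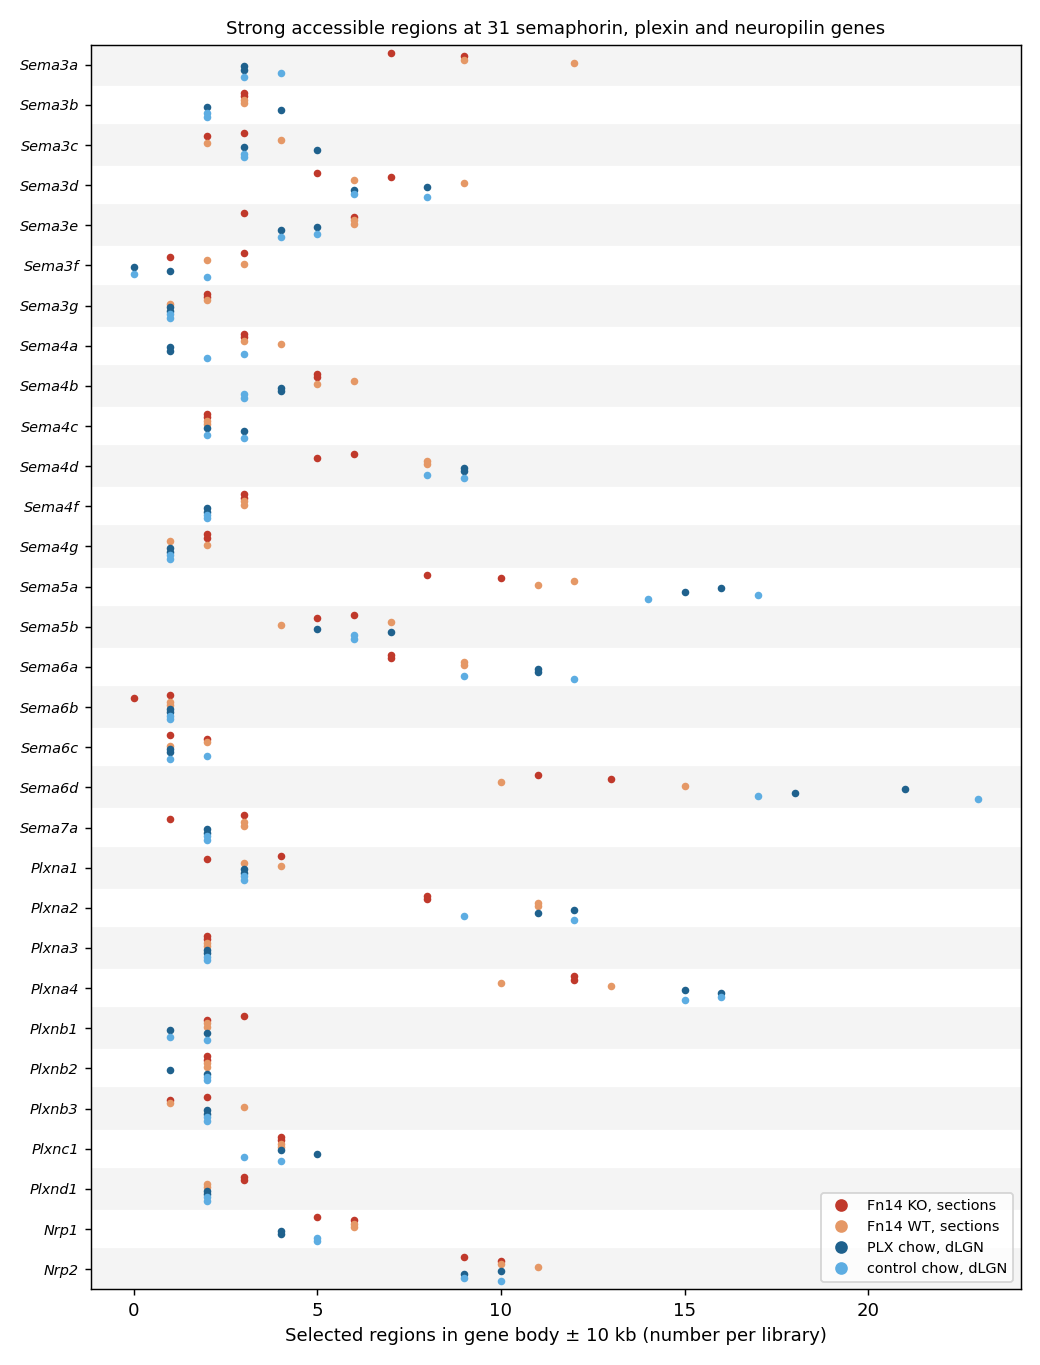
Selected regions (number per library, horizontal axis) in the gene body and 10 kb on either side of each of the 31 genes, 1 point per library, coloured by group. Sema3a lies at 7 to 12 in the sections and 3 to 4 in dLGN, Sema5a, Sema6d and Plxna4 lie higher in dLGN, and most short genes hold 1 to 3 in every library.

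The first comparison set the 4 dLGN libraries (PLX and control chow) against the 4 section libraries (KO and WT). Among ligands, Sema3a, Sema4b and Sema4a had fewer strong regions in dLGN and Sema5a and Sema4d had more, and these 5 passed an adjusted p of 0.05 in both fits described below. The 2 sides also differ in age and dissection, and the dLGN side includes treated mice and the section side knockouts, so tissue, age and preparation cannot be told apart. With 4 libraries a side the smallest exact permutation p is 0.0286.

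Sema3a, a secreted repellent that acts through Nrp1 and A plexins, had 7 and 9 selected regions in the KO libraries and 9 and 12 in WT, against 3 and 3 in PLX chow and 4 and 3 in control chow. Every section library lay above every dLGN library. The mean was 9.25 ± 2.06 (SD, n = 4) in sections and 3.25 ± 0.50 (SD, n = 4) in dLGN, and the log2 difference of regions + 0.5 was -1.36 (SE 0.152, adjusted p = 0.00658, limma). With all deposited peaks merged, without selection, Sema3a still had 30 to 39 regions in sections and 15 to 23 in dLGN. Over the alternative settings of the fit Sema3a was past the threshold in 18 of 18 and Sema4b in 16 of 18 (adjusted p up to 0.531, limma). Of the other members called on unequal counts, Sema5a passed in 9 of 18 (adjusted p up to 1.00), Sema4d in 8 of 18 (up to 0.569), Sema4a in 7 of 17 (up to 0.745) and Nrp1 in 6 of 18 (up to 1.00, limma).

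Sema4b, a membrane-bound ligand, had 5, 5, 6 and 5 selected regions in the section libraries (KO, then WT) and 4, 4, 3 and 3 in dLGN (PLX chow, then control chow). The groups did not overlap. Its log2 difference was -0.53 (SE 0.0576, adjusted p = 0.00594, limma). The counts of Sema4b were equal within every group but WT, so this SE rests on little spread. In the fit without genes of equal counts, described below, the SE was 0.161 and the adjusted p 0.0141 (limma).

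Sema5a, a large transmembrane ligand with thrombospondin repeats, had 8, 10, 12 and 11 selected regions in sections and 16, 15, 17 and 14 in dLGN. The lowest dLGN library stood above the highest section library. The log2 difference was 0.58 (SE 0.104, adjusted p = 0.0302, limma), and over all merged regions the means were 88.0 ± 2.94 (SD, n = 4) in dLGN and 70.5 ± 4.65 (SD, n = 4) in sections.

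Sema6d, a class 6 ligand, had 11, 13, 10 and 15 selected regions in sections and 21, 18, 17 and 23 in dLGN. Plxna4, an A plexin that takes part in both class 3 and class 6 signalling, had 12, 12, 10 and 13 in sections and 15, 16, 16 and 15 in dLGN. For neither gene did the groups overlap, yet the fit over all genes gave adjusted p = 0.101 for Sema6d (log2 difference 0.67) and 0.0688 for Plxna4 (0.39, limma). Both passed once genes with equal counts were left out (adjusted p = 3.96e-04 and 0.0190). Counted over all merged regions the direction turned for both, to -0.19 and -0.26, where the median of all genes had itself shifted by -0.10.

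Sema4f, another class 4 ligand, had 3 selected regions in each section library and 2 in each dLGN library. Equal counts leave the fit no spread to estimate, so that the adjusted p of such a gene is too small to be read, and its log2 difference is given alone, as -0.49. The sign turned to 0.16 at 100000 selected regions and to 0.08 with all deposited peaks. A second fit, added after seeing the data, therefore left out the 4748 genes whose counts were equal within every group.

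By non-overlap, 3 of the 31 genes were higher in dLGN (5.90% of all 17340 genes were) and 3 were lower (7.23% of all genes). In the limma fit over 15308 genes, 2 of the 30 tested members were higher at an adjusted p under 0.05 (5.59% of all genes were) and 6 lower (8.09%), a total of 8, where 13.7% of all genes passed. The median log2 difference of the members was -0.12 and that of all genes 0.00. Beside Sema3a, Sema4b and Sema5a, the members past the threshold were Sema4a (-0.82, adjusted p = 0.0289), Sema4d (0.37, 0.0343), Nrp1 (-0.33, 0.0298) and, on equal counts within every group, Sema4f and Plxnd1 (-0.24, and 0.03 at 100000 selected regions).

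Sema4a, a class 4 ligand, had 3, 3, 3 and 4 selected regions in sections and 1, 1, 3 and 2 in dLGN, so that 1 control chow library reached the section level. Sema4d had 6, 5, 8 and 8 in sections and 9, 9, 8 and 9 in dLGN. Nrp1, the co-receptor of Sema3a, had 5, 6, 6 and 6 in sections and 4, 4, 5 and 5 in dLGN. For these 3 genes the tissues shared values. The counts of Nrp1 were equal within every group but KO. In the fit without genes of equal counts its SE was 0.154 and its adjusted p 0.123 (limma). Leaving out any 1 of the 8 libraries ended at least 1 of the calls of Sema4a, Sema4d, Nrp1 and Sema5a. Without the first PLX chow library the adjusted p was 0.0961, 0.109, 0.0978 and 0.103 for these genes in turn (limma), the highest in these fits for Sema4a, Sema4d and Sema5a, and 0.1000 was the highest for Nrp1, without the first control chow library.

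With the genes of equal counts left out, 24.9% of 10560 genes passed (9.91% higher in dLGN, 15.0% lower) and 9 members did: Sema3a (adjusted p = 3.48e-07), Sema3f (0.00848), Sema4a (0.00301) and Sema4b (0.0141) lower in dLGN, and Sema4d (0.0455), Sema5a (9.00e-04), Sema6a (0.0246), Sema6d (3.96e-04) and Plxna4 (0.0190) higher (limma). The 5 genes past the threshold in both fits were Sema3a, Sema4a, Sema4b, Sema4d and Sema5a. Sema3f, a ligand of Nrp2, had 3, 1, 2 and 3 selected regions in sections and 0, 1, 0 and 2 in dLGN. Sema6a, a ligand of Plxna2 and Plxna4, had 7, 7, 9 and 9 in sections and 11, 11, 9 and 12 in dLGN.

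**Figure D2:**
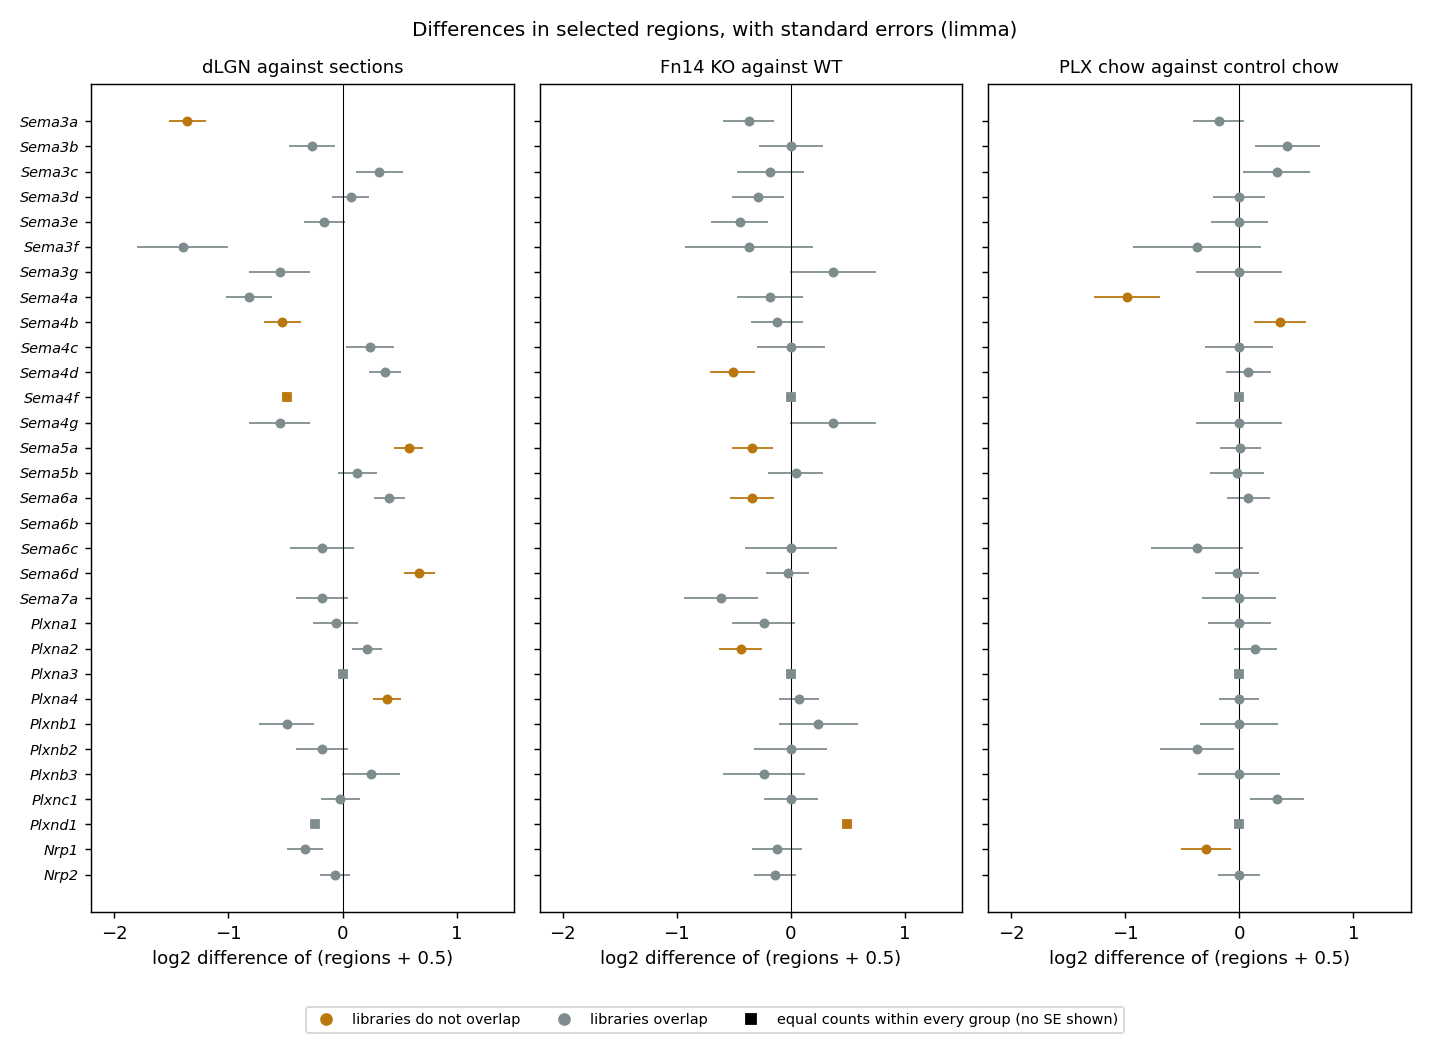
Log2 difference of selected regions + 0.5 for each gene in the 3 comparisons (horizontal axes), with standard errors from the limma fit without genes of equal counts. Squares are genes with equal counts within every group, and Sema6b was not tested. Sema3a stands at -1.36 for dLGN against sections, while the Fn14 and chow panels lie nearer to 0.

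Summed by class, the tissue difference had 2 directions. The class 6 genes held 32.8 ± 3.5 (SD, n = 4) selected regions in dLGN and 22.5 ± 2.52 (SD, n = 4) in sections, the class 5 genes 21.5 ± 1.29 and 15.8 ± 2.22, and the A plexins 31.5 ± 1.00 and 26.5 ± 2.52. The class 3 genes held 22.5 ± 1.29 in dLGN and 31 ± 4.16 in sections, and the class 4 genes 19.5 ± 0.577 and 22.0 ± 1.83. The B plexins held 5.25 ± 0.957 and 6.00 ± 1.15. Classes 3, 5 and 6 did not overlap between the tissues, the B plexins did, and class 4 and the A plexins each shared a value, 20 and 30. By its own counts Sema3a was the only class 3 gene apart, Sema5a the only class 5 gene and Sema6d the only class 6 gene. The sums are therefore not a trait of every gene of a class. Over all deposited peaks the A plexins ran the other way, with 152 ± 11.4 (SD, n = 4) in dLGN and 183 ± 22.2 (SD, n = 4) in sections, and class 6 held 212 ± 13.1 and 216 ± 15.8. These sums are descriptions and were not tested.

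Summed by list, the markers of thalamic and inhibitory neurons did not overlap between the tissues, and those of the other cell types touched or overlapped. Single markers went against their list, with Rora (thalamic) and Gad1 (inhibitory) lower in dLGN by non-overlap. The 11 thalamic neuron markers held 38 to 47 selected regions in dLGN and 33 to 37 in sections, the 12 inhibitory neuron markers 30 to 36 and 21 to 28 (Lhx6 at 0 in all), and the 12 markers of cortical and hippocampal excitatory neurons 37 to 45 and 45 to 54. Astrocyte markers ran from 42 to 45 in dLGN and 40 to 57 in sections, oligodendrocyte markers from 36 to 44 and 29 to 41, and endothelial markers from 13 to 15 and 13 to 16 (Tie1 at 0 in all). The 16 microglial markers held 14 to 19 in dLGN and 18 to 27 in sections (Tmem119 at 0 in all). The part of these cell types in the changes at the semaphorin genes was not tested.

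The union of selected regions over the 8 libraries gave 267 region-gene pairs at the 31 genes, of which 239 (89.5%) overlapped the gene. In all 8 libraries 63 of them were selected (23.6%, against 30.8% of regions in all gene windows). 27 were selected in all 4 dLGN libraries and in 0 section libraries (10.1%, against 7.11%), and 17 the other way round (6.37%, against 5.58%). The dLGN regions were spread unevenly: class 6 genes held 13 of 60 regions of that kind against 4 for sections, 8 of them at Sema6d. Near a listed start, within 1 kb, 68.0% of 25 regions were selected in all 8 libraries, against 19.5% of the 185 regions farther away.

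At Sema6d the strongest of these regions, at chr2:124404320-124404904 inside the gene, ranked 7535, 16845, 11035 and 11455 in the dLGN libraries (1 is the strongest). In the section libraries the same place held a weak peak ranked 66179 to 126067. A section region of Sema6d, at chr2:124291079-124291591, ranked 15932, 29334, 23269 and 9986 in sections and had a peak in only 1 dLGN library, at rank 162872. With more selected regions in dLGN, Sema6d thus also held 3 that were selected in all section libraries and no dLGN library.

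Nrp1 showed both kinds too. The region at chr8:128374757-128375420, 16015 bp into the gene, ranked 8714, 20739, 19084 and 12173 in dLGN and 103920 to 163346 in the 3 section libraries that had a peak. The region at chr8:128415592-128416749 ranked 24639 to 49329 in sections and 73980 to 96818 in dLGN. At Sema3c, a secreted ligand that also uses neuropilins, the region at chr5:17636217-17636883 ranked 8413 to 16058 in dLGN and 73435 to 156470 in sections.

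Under the stricter rule, selected in every library of 1 side and with no deposited peak at all in the other, 5 regions at 3 genes were called for sections, 5.38% of the 93 regions eligible. This is near the 5.22% found over all regions (3.31% within gene windows). Of 121 regions eligible for dLGN, 0 were called, where 2.46% of all regions and 1.23% of those in gene windows were.

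Of the 5 section regions, 3 lay inside Sema3a. The first, at chr5:13354924-13355340, lay at -41653 bp from the listed start and had deposited −log10 p values of 42.9 and 24.2 for the KO libraries and 17.8 and 33.0 for WT, with folds of 5.33 to 8.48. The second, at chr5:13383928-13385102, had 35.2, 40.5, 28.0 and 19.1. The third, at chr5:13495895-13496399 and 99362 bp past the start, had 44.9, 35.6, 20.3 and 25.7. Both genotypes carried all 3, and none of the 4 dLGN libraries had a peak of any strength there. Sema3a was not without open chromatin in dLGN: the region at chr5:13398469-13400148, 2524 bp past the start, was selected in all 8 libraries, at ranks 13160 to 20529.

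The fourth section region lay 28 bp beyond the end of Sema4a, at chr3:88435347-88435931, with −log10 p values of 63.8, 35.2, 25.9 and 14.4. The fifth, at chr15:32690844-32691421 near the far end of Sema5a, had 22.2, 42.3, 38.6 and 34.6. Its neighbour at chr15:32693044-32693701 was reversed: it ranked 11370, 20150, 21044 and 27547 in dLGN, and in sections only the second WT library had a peak there, at rank 182433.

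**Figure D3:**
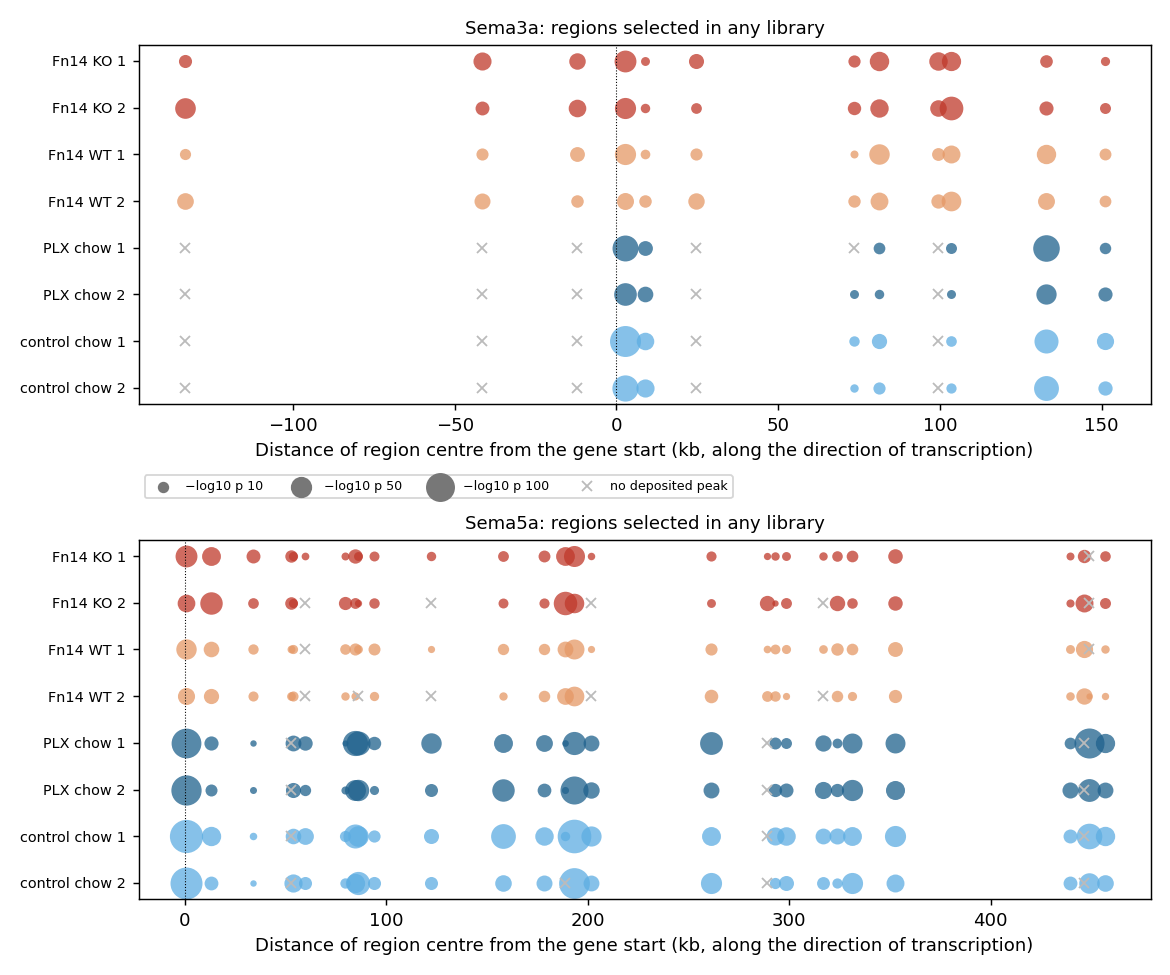
Regions selected in any library at Sema3a (top) and Sema5a (bottom), by distance of the region centre from the listed start (kb, horizontal axis) and library (vertical axis). Larger points have a higher deposited −log10 p and crosses mark places with no deposited peak. At Sema3a 5 of the 12 places were selected in all section libraries and no dLGN library, and at Sema5a 5 of 28 were selected in all dLGN libraries and no section library and 2 the other way round.

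Of the 37 starts, 27 lay under a selected region in some library. By rank within the equally long lists, 5 of the 27 were stronger in every dLGN library than in every section library (9.85% of the 12339 coding starts under a selected region were) and 5 were weaker (29.8%). These genes were named after their values were seen. The start of Sema3d, a secreted class 3 ligand, ranked 7040, 9426, 8394 and 6594 in sections and 2060, 2982, 2409 and 2147 in dLGN. The start of Plxna2 ranked 9229, 4375, 5365 and 5382 in sections and 2193, 3259, 3004 and 2876 in dLGN. The starts of Sema3e, Sema5a and Plxnb3 were the other 3 on the stronger side.

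Both starts of Sema4b were weaker in dLGN. Its first start ranked 8491, 6558, 4909 and 8429 in sections and 28466, 25618, 18464 and 24046 in dLGN, in the same direction as its count of regions. The other weaker starts belonged to Sema4c, whose 2 starts share 1 region, and Plxnb1. The start of Sema4f, in contrast, ranked 3236 to 3943 in sections and 2587 to 4201 in dLGN, which overlapped, and the start of Sema6c ranked 2232 to 3523 and 3321 to 4787.

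**Figure D4:**
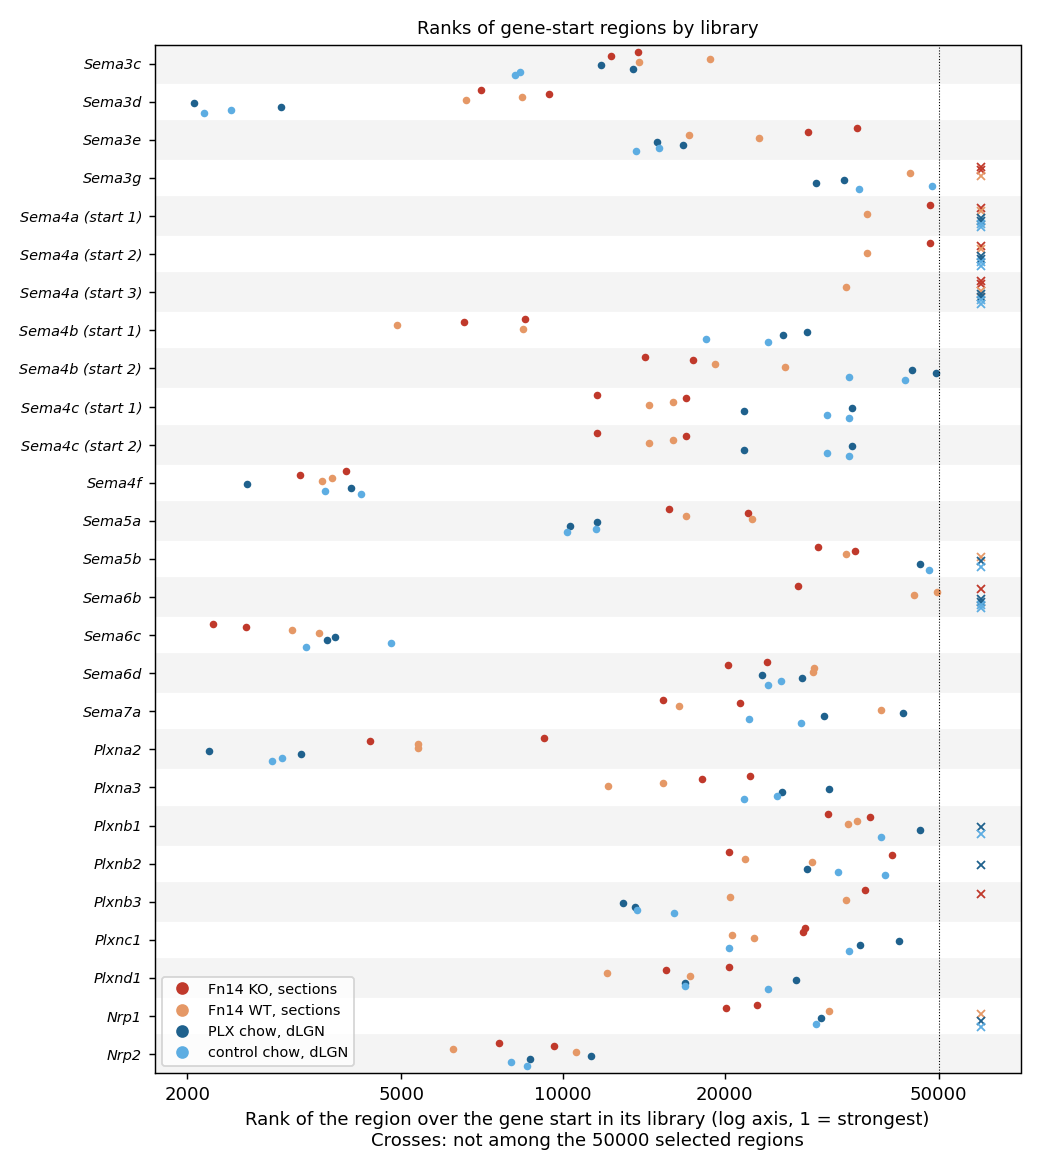
Rank of the region over each gene start within the 50000 selected regions of its library (log axis, 1 is the strongest), 1 point per library, coloured by group, with crosses for starts outside the selected regions. Sema3d and Plxna2 rank between 2060 and 3259 in dLGN, and the first start of Sema4b lies between 4909 and 8491 in sections and between 18464 and 28466 in dLGN.

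The second comparison set Fn14 KO against WT sections, to ask how the loss of Fn14, a receptor of the TNF receptor family, went with accessibility at these genes. With 2 libraries a side the smallest exact permutation p is 0.33. By non-overlap, 4 members were lower in KO (5.29% of all genes were) and 1 was higher (7.41%). Leaving out 1 library of the 4 leaves 1 on a side, where non-overlap is easier to meet for any gene. The count of lower members was then 7 (without the second WT library) to 11 (without the first), with no share over all genes beside it.

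Sema4d had 6 and 5 selected regions in KO and 8 and 8 in WT. With all deposited peaks merged its groups were apart the other way, at 32 and 28 regions in KO and 27 and 27 in WT. The KO lists are longer, and 23.6% of all genes were higher in KO by that count. Sema5a had 8 and 10 selected regions, against 12 and 11. Sema6a had 7 and 7 against 9 and 9, and Plxna2 had 8 and 8 against 11 and 11. With all deposited peaks the log2 difference of Plxna2 turned to 0.11. These are 3 ligands from 3 classes and 1 receptor, and Sema6a and Plxna2 are known to bind each other. None of the 4 passed the limma fit (log2 differences -0.51, -0.34, -0.34 and -0.44, adjusted p = 0.129, 0.730, 0.695 and 0.484).

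Plxnd1, the receptor of Sema3e, had 3 and 3 selected regions in KO and 2 and 2 in WT, and was the only member past the threshold (log2 difference 0.49, adjusted p = 1.31e-07, limma, where 3.11% of all genes passed). Its counts were equal within every group, so that this p rests on a spread of 0, as it did for 449 of the 476 genes that passed. It was not in the fit without such genes, where 0 members and 0.492% of genes passed, and 3 of 30 members had an unadjusted p under 0.05 in the first fit, where 8.03% of all genes had. Leaving out 1 library gave 1 to 3 members past the threshold, with 3 without the first KO, the second WT or either control chow library. At 25000 selected regions its difference was -0.74.

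No region at these genes was called for 1 genotype: 0 of 113 regions selected in both KO libraries lacked a peak in WT (0.0298% of all regions did, and 0.0308% of those in gene windows), and 0 of 126 selected in both WT libraries lacked one in KO (0.00995% and 0.00696%). At the gene starts, 5 of the 27 ranked stronger in both KO libraries than in either WT library (20.8% of coding starts) and 4 weaker (19.2%). The KO libraries were also apart from WT in some marker lists. The 16 microglial markers held 26 to 27 selected regions in KO and 18 to 19 in WT, the 10 astrocyte markers 40 to 48 and 51 to 57, and the 12 inhibitory neuron markers 21 to 23 and 27 to 28. The other lists touched or overlapped: thalamic neurons (33 to 37 and 36), cortical and hippocampal excitatory neurons (47 to 54 and 45 to 47), oligodendrocytes (29 to 41 and 38 to 41) and endothelial cells (13 to 16 and 14 to 16). Their part in the lower counts was not tested.

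The third comparison set PLX chow against control chow within dLGN, to ask which sites change under a chow meant to deplete microglia. By non-overlap, Sema4b was higher and Sema4a and Nrp1 were lower (1 and 2 of 31, against 2.60% and 3.00% of all genes). Sema4b had 4 and 4 selected regions in PLX chow and 3 and 3 in control chow. Sema4a had 1 and 1 against 3 and 2, and Nrp1 had 4 and 4 against 5 and 5. The libraries of the 2 diets differed by 1 or 2 regions. Leaving out 1 chow library gave 1 to 6 higher and 2 to 5 lower members, with 6 higher without the second control chow library. Non-overlap is easier to meet with 1 library on a side, and these counts have no share over all genes beside them.

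In the limma fit 0 members passed, where 1.10% of all genes did, and 3 of 30 had an unadjusted p under 0.05, where 3.14% of all genes had. The adjusted p was 0.624 for Sema4b (log2 difference 0.36), 0.511 for Sema4a (-0.98) and 1.00 for Nrp1 (-0.29). The 3 differences turned sign with other numbers of selected regions: Sema4b to -0.74 and Nrp1 to 0.24 at 25000, and Sema4a to 0.12 at 100000. In the fit without genes of equal counts, 0 members and 0.0473% of genes passed. The members that passed when 1 library was left out did so on counts then equal within every group, with no spread to estimate. They were Nrp1 without either KO library, Sema4b without either WT library and Sema6a without either control chow library. Without the first or second PLX chow library they were Sema3b or Plxnb2.

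0 of 136 regions selected in both PLX chow libraries and 0 of 134 selected in both control chow libraries were called for 1 diet (0.00233% and 0% of all regions). The 16 microglial markers held 14 to 16 selected regions in PLX chow and 16 to 19 in control chow, which touched, and the 12 cortical and hippocampal excitatory neuron markers held 37 to 39 and 40 to 45, which did not. The other lists touched or overlapped, among them thalamic neurons (40 to 46 and 38 to 47) and inhibitory neurons (30 to 36 and 35 to 36). Their part was not tested. At the gene starts, 2 of the 27 were stronger in PLX chow (7.08% of all coding starts) and 7 were weaker (20.6%).

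The genes downstream of the receptors were followed as a list of 33: 9 co-receptors and other receptors, such as L1cam and Met, and 24 cytoplasmic genes, such as the collapsin response mediators (Dpysl family), the Mical oxidases that take actin apart, and GTPases. For dLGN against sections 1 was higher by non-overlap (Dpysl3, against 5.90% of all genes) and 2 were lower (Dpysl5 and Mical2, against 7.23%). In the limma fit 3 of 32 were higher and 3 lower (5.59% and 8.09% of all genes), but Dpysl3, Mical1 and Cdk5 among them had equal counts within every group. Without such genes 2 of 25 were higher and 5 lower (9.91% and 15.0% of all genes). Dpysl5 had 3, 3, 4 and 3 selected regions in dLGN and 6, 6, 5 and 5 in sections (log2 difference -0.68, adjusted p = 0.0106). Mical2 had 4, 5, 4 and 4 against 8, 6, 6 and 6 (-0.55, 0.0498). For Fn14 KO against WT 2 of the 33 were higher by non-overlap and 5 lower (7.41% and 5.29% of all genes). In limma 1 passed (3.11% of all genes), Dpysl3, which was lower on equal counts, and without such genes 1 did (0.492%), Arhgef12, which was higher. For PLX against control chow 2 were higher and 2 lower by non-overlap (2.60% and 3.00% of all genes). The 2 that passed in limma (1.10% of all genes), Mical1 and Cdk5, had equal counts within every group, and without such genes 0 passed, with 3 of 32 at an unadjusted p under 0.05 in the first fit. The median log2 difference of the 33 was 0.00 in all 3 comparisons, that of all genes.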

How the data were processed

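The submitters ran the ENCODE ATAC-seq pipeline (build mm10, multimapping 0, peaks called at a p threshold of 0.01), per the deposited instructions, and limited each list to 300000 peaks, per the file names. Neither aligner nor peak caller is named (not given in the sources used here), and the submitters' processing notes name deepTools 3.5.0 without its role. The deposited lists were made per sample by the authors and give each peak a score, a fold enrichment over background, and p and q as −log10. The deposited score is 10 times −log10 p, capped at 1000.

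Gene bodies came from a RefSeq table (GRCm38.p6). Counts of selected regions were compared as log2(count + 0.5) with limma 3.58.1 (intensity trend, all 8 libraries in 4 groups, genes with a mean of at least 1, Benjamini-Hochberg adjustment over all genes) in R 4.3.3. On Poisson-simulated data for the tissue comparison it recovered 22 of 200 genes changed 3-fold among 14018, with 0 false calls. The simulated counts were drawn independently, whereas 4748 of the 15308 genes tested had equal counts within every group. The simulated rates therefore need not hold for the fit on the deposited data. Members are named where their libraries do not overlap, where they pass 0.05, where they hold a region called for 1 group, or by rank of peaks. Members, lists and this rule were chosen with earlier results of these data known. Alternatives varied the number of regions, window, overlap, pseudocount, filter, block and replicates, and 1 was added after seeing the data.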

Additional observations from a re-analysis of the deposited data

How the results depend on the processing

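No read depth is known and counts per gene are small, so 1 region decides many values, and the causes of the shifts below were not tested. Members whose libraries did not overlap, for KO against WT, higher, numbered 4 at 100000 regions and 2 with a 50 kb window. With all deposited peaks there were 5 (23.6% of all genes were higher), and both KO lists reach the limit of 300000 peaks. For PLX against control chow, higher, they numbered 3 at 100000 regions, 2 with all peaks (4.83% of all genes) and 3 with 50 kb. On the lower side they numbered 11 with all peaks (12.8% of all genes), 0 with the gene body alone and 1 with 50 kb. For dLGN against sections they numbered 5 (higher, 25000 regions) and 6 (lower, 50 kb). Leaving out each replicate gave 1 to 4 higher and 7 to 11 lower for KO, 1 to 6 and 2 to 5 for PLX, and 3 to 5 and 3 to 5 for dLGN. Counts without a share over all genes beside them are not read as results about the members.

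All genes past the threshold (limma) for KO against WT, 476 in the fit as reported, numbered 196 with all peaks, 309 with the gene body alone and 52 without genes of equal counts. For PLX, 169 as reported, they numbered 106 at 25000 regions, 45 with all peaks and 5 without equal counts, and for dLGN, 2094 as reported, 1391 with the gene body and 4206 with 50 kb. Leaving out each replicate gave 595 to 1321, 240 to 731 and 1925 to 2699. Members past it: for KO, 0 at 25000 regions, at 100000, with all peaks and without equal counts, and 1 to 3 by leaving out each replicate. For PLX, those past it without 1 replicate (Nrp1, Sema4b, Sema3b, Plxnb2 or Sema6a) had counts then equal within every group and are not read. For dLGN, 4 with all peaks, 4 with the gene body, and 5 to 8 by leaving out each replicate.

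The replicate number as a block left 4 members past it for dLGN (Sema3a, Sema4b, Sema4f and Plxnd1) and otherwise changed no member count. Deviations of same-numbered libraries correlated at 0.10 for KO and WT and at -0.01 for the chow groups. With 2 libraries a group this does not settle whether the numbers pair the libraries.

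Regions at members called for 1 group are given here without the share over all regions, so they are not read as results about the members. With all deposited peaks, where weak peaks could be called too, they numbered 44 for KO and 28 for WT. They then numbered 8 for PLX, 27 for control, 41 for dLGN and 63 for sections. With absence judged among selected regions they were 5, 13, 1, 4, 27 and 17, and at 100000 regions 1 for WT, 9 for dLGN and 17 for sections. At 25000 regions 0 were called for sections. Leaving out each replicate gave 0 to 2 for dLGN and 5 to 8 for sections. Directions that reversed (log2 differences): for KO, Sema4d 0.15 and Plxna2 0.11 with all peaks, Plxnd1 -0.74 at 25000 and -0.08 at 100000. For PLX, Sema4a 0.12 at 100000, Sema4b -0.74 and Nrp1 0.24 at 25000. For dLGN, Sema4f 0.16 at 100000 and 0.08 with all peaks, Sema6d -0.19 with all peaks, Plxna4 -0.07 at 100000 and -0.26 with all peaks, and Plxnd1 0.03 at 100000. With all peaks the median of all genes shifted by 0.14 for KO and -0.10 for dLGN.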
